A study of Brassica rapa subsp. pekinensis with 2 samples.

Results

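The miRNAs described here were the 21-nt mature sequences of Chinese cabbage with the name prefix PC- that started with A, C or G. The prefix marks a sequence whose reads matched no miRBase precursor of the species searched, but whose surrounding genome sequence could be folded into a hairpin. Members were chosen by the prefix, by a length of 21 nt and by the first base alone, with 1 entry per name, and their reads played no part in the choice. In total, 146 of the 1220 miRNA names of the table were members, and they held 174 records, where a record is 1 position in the genome.

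The study compared anthers with vegetative tissue of the double haploid Chinese cabbage line ‘FT’. The ‘Ant’ library was made from pooled anthers of several developmental stages, and the ‘Mix’ library from whole plants with 4 true leaves, that is from roots, stems and leaves together. The labels give a cold treatment at 4 °C for 20 days for the plants of both groups, whereas the methods of the study give it for the plants that flowered. Each group had 1 library, so organ, plant age and library cannot be told apart, and no difference has a replicate check. In such bulk tissue, fewer cells of a type and less RNA per cell cannot be told apart either. The reads summed over all names were 1676768 in Ant against 1657860 in Mix. The tests and intervals below cover only the counting error of these libraries, because each group had 1 library. No molecular identifiers were used, so repeated reads of 1 molecule could not be told from reads of separate molecules. A small RNA table has no marker genes, so the tissue labels were not checked.

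In plants, a miRNA is cut by a Dicer-like enzyme from a precursor RNA that folds back on itself. The cut leaves a duplex of the 5′ arm and the 3′ arm with short overhangs at the 3′ ends, and usually 1 strand is kept by an ARGONAUTE protein. In Arabidopsis the first base of the strand guides which protein takes it up: AGO1 prefers U, AGO2 prefers A and AGO5 prefers C. Most of the long-known plant miRNAs start with U, and the members are the 21-nt PC- names that do not.

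The mature sequences of the members that the results turn on are given below as deposited, with T for U, from the 5′ end. They are the most read members of both libraries and those with the largest differences between them. Capitals mark the seed, which is bases 2 to 8.
PC-3p-770_1520: cTACAACCtagttatacagtt
PC-5p-3447_402: aAACTGTAtaactaggttata
PC-3p-3068_446: aAACAAAAgaacacatccatc
PC-5p-68401_27: aTGGGTGTgtccttttgtttc
PC-3p-2424_542: aAAAAGTTccaagtcttcatc
PC-5p-6811_231: aAGACTTTgaacttttttgct
PC-5p-3156_435: cGTTTGGCgttactcgaaccc
PC-5p-5459_278: aCTTTGAGacttcagacctcc
PC-3p-6231_249: aTATATTGtgttgttatcgag
PC-5p-7382_217: aATTGTTAgcggaatataaga
PC-3p-20672_90: cTCTGCAAgttatagaagaag
PC-3p-146407_13: gGTCTCTTtacttctgccacc
PC-5p-3397_407: aAATGGAGtaatgaacaaaaa
PC-5p-34876_55: gGAAATGGagtaatgaacaaa
PC-3p-58862_32: cATAGTAGaagacttcctgga
PC-5p-5898_261: cAGGAAGTcttctactatgtc
PC-3p-22377_84: cAATAATGttgctgcctctgc
PC-3p-38634_49: aAGCTCGAgatccatctggtt

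Taken as a group, the members had more reads in Ant than in Mix. Their reads summed to 7179.5 in Ant against 3123.5 in Mix, and some deposited reads carry fractions. As a share of the reads of all names, the members took 0.428% in Ant (Wilson interval at 95% 0.418 to 0.438) and 0.188% in Mix (0.182 to 0.195). Per member, the medians were 11 reads in Ant and 4.5 reads in Mix. The lean did not rest on the most read member: without it, the sums were 5830 reads in Ant against 2972.5 in Mix, a log2 ratio of 0.93. Normalized reads were higher in Ant for 103 members and in Mix for 43.

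A name was called higher or lower in Ant when a chi-square test and Fisher's exact test on its normalized reads both gave a p of at most 0.05 and its log2 ratio, Ant over Mix, exceeded 1 or lay below -1. Of the 146 members, 53 were called higher, 36.3% of them, against 27.1% of all 1220 names. The members called lower numbered 16, which was 11.0% of them, against 20.9% of all names. The other 77 were not called. Setting values under 3 reads to 3 reads, the members had a median log2 ratio of 0.59, beside -0.05 over all names. At most 3 reads in both libraries, the limit that a count of 0 allows, were seen for 17 members, beside 156 of the 1220 names. None of these 17 members could be called. Of the 92 members with at least 10 reads in a library, 49 were called higher and 15 lower, beside 36.1% and 29.0% of the 848 names with that minimum. These tests compare 2 libraries and know nothing of the spread between plants. With an assumed biological coefficient of variation of 0.4, edgeR's exact test kept 36 members as higher and 10 as lower, beside 17.1% and 13.9% of all names.

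**Figure D1:**
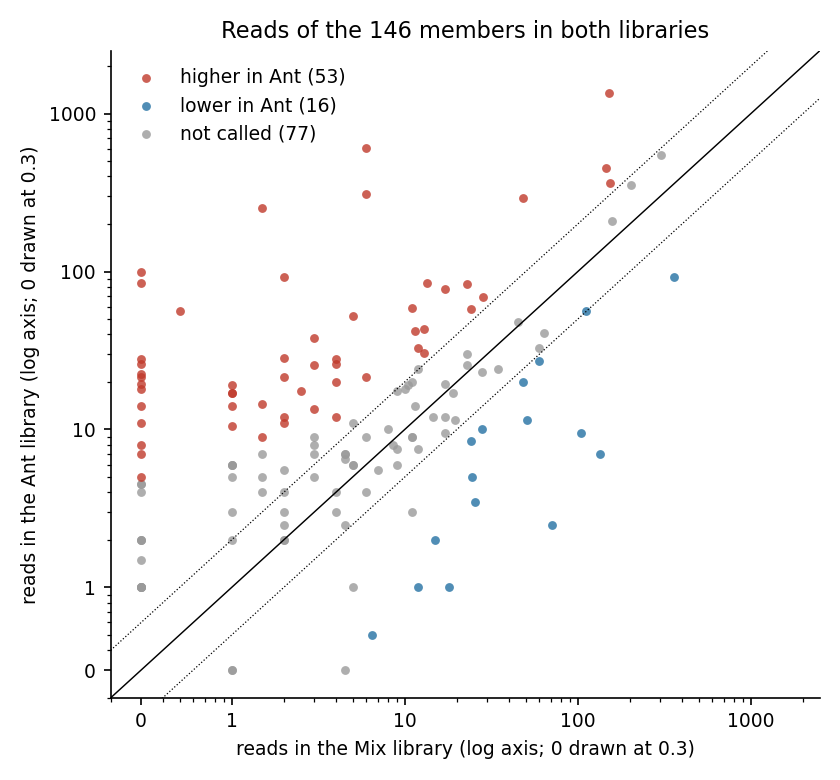
Each point is 1 of the 146 members, with its reads in the Ant library on the y axis and in the Mix library on the x axis, both on log axes with 0 drawn at 0.3. The solid line marks equal reads and the dotted lines a difference of 2 to 1. The 53 members called higher in Ant lie above the lines, and the 16 called lower lie below the solid line. Calls used normalized reads, so PC-5p-22903_82 (56 reads in Ant, 111 in Mix), called lower, lies just inside the lower dotted line.

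Other PC- names of similar length also had more names called higher than lower. Among the 114 names of 21 nt that started with U, 52 were called higher and 9 lower (45.6% and 7.89%). Of the 55 PC- names of 22 nt, 17 were higher and 8 lower, and of the 263 names of 23 to 24 nt, 41 were higher and 22 lower. The 348 known miRNAs of 21 nt had 98 higher and 126 lower. With reads under 3 set to 3, the median log2 ratio was 0.59 for the members, 0.99 for the 21-nt names with U, 0.41 at 22 nt, 0.16 at 23 to 24 nt and -0.05 for the known miRNAs of 21 nt. Limited to names with at least 10 reads in a library, these medians were 1.22, 1.54, 1.10, 0.24 and -0.51 in the same order. A name can pass that minimum through the library where it is high, and 40 of the 92 members that passed had 10 reads in both. The summed reads gave another picture for the U group, with 4373 reads in Ant against 8683.5 in Mix, and 1 name held 4176 of the Mix reads. No test of these differences between groups of names was made.

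**Figure D2:**
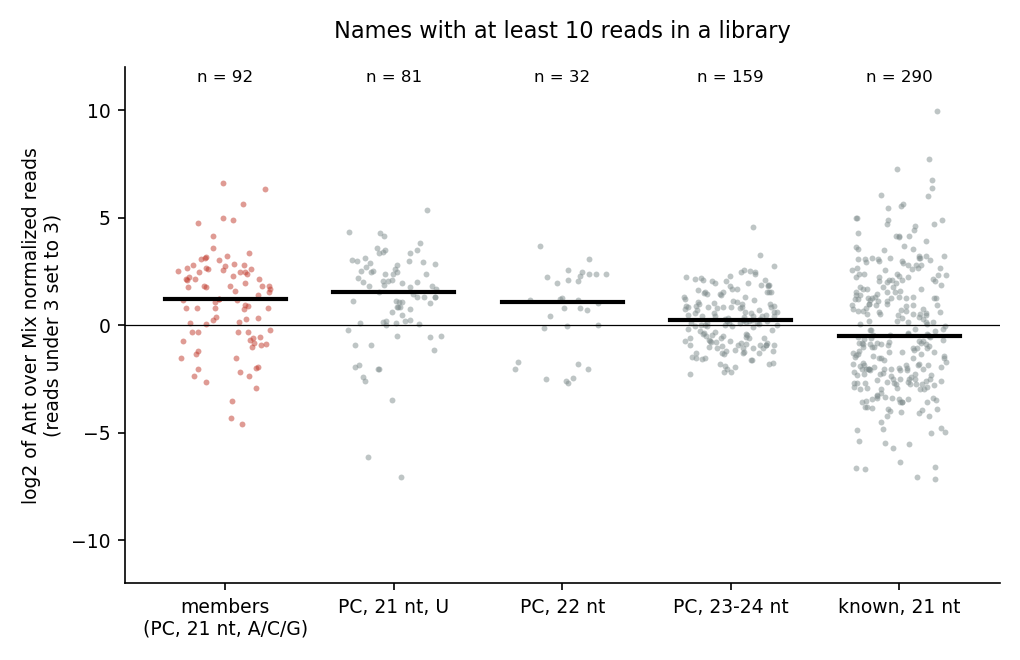
Log2 ratio of Ant to Mix normalized reads (reads under 3 set to 3) for each name with at least 10 reads in a library, in 5 groups of names, with horizontal bars at the medians. The 92 members have a median of 1.22, the 81 PC- names of 21 nt with U 1.54, and the 290 known names of 21 nt -0.51.

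With U left out by the rule, 106 members (72.6%) started with A, 23 with C and 17 with G. The members with A had a median of 11.5 reads in Ant against 4.75 in Mix, those with C of 17 in Ant and 9 in Mix, and those with G of 5 in Ant and 4 in Mix. Calls went the same way in the members with A, with 39 higher and 10 lower. The C members had 9 higher and 5 lower, and the G members 5 higher and 1 lower. The C members held 2109 reads in Ant against 884.5 in Mix, and PC-3p-770_1520 alone gave 1349.5 of the Ant reads. Without it they held 759.5 reads in Ant against 733.5 in Mix. The arms were nearly even, with 74 members from the 5′ arm and 72 from the 3′ arm. The reads of the 3′ arm summed to 3854.5 in Ant against 1031 in Mix, and those of the 5′ arm to 3325 in Ant against 2092.5 in Mix. Without PC-3p-770_1520 and PC-3p-3068_446, the 3′ arm had 1900 reads in Ant against 874 in Mix. The median reads were close, at 10.75 in Ant and 4.25 in Mix for the 3′ arm and 11.75 in Ant and 4.75 in Mix for the 5′ arm.

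The most read member in Ant was PC-3p-770_1520, a C-starting sequence from the 3′ arm of a precursor at A02:18438117-18438303 on the plus strand. It had 1349.5 reads in Ant against 151 in Mix, which is 8.66-fold higher in Ant (log2 3.11, counting interval 2.87 to 3.37). By itself it took 18.8% of the member reads in Ant. Its partner on the 5′ arm was also a member. PC-5p-3447_402 had 545 reads in Ant against 304.5 in Mix, a log2 ratio of 0.79 (0.59 to 1.0), which did not reach the fold needed for a call. The more read arm thus differed between the libraries. The 3′ arm had 71.2% of the reads of both arms in Ant and 33.2% in Mix. Both arms were listed with the same mature sequences at a further position, on A07, so their reads cannot be assigned to 1 of these loci. In the deposited structure, each arm ends 1 base short of the start of the other, so neither 3′ end overhangs. The precursor is printed below from the plus strand, with the arms that gave 2 members in capitals as deposited.
PC-3p-770_1520 precursor: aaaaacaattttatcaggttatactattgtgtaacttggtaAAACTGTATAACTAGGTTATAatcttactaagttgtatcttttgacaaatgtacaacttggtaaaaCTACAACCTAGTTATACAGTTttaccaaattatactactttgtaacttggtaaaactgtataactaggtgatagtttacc

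The next most read member in Ant, PC-3p-3068_446, had few reads in the Mix library. It had 605 reads in Ant against 6 in Mix, which is 97.7-fold higher (log2 6.61, interval 5.48 to 8.06). With reads under 3 set to 3, this was the largest increase among the called members. Its partner on the 5′ arm, PC-5p-68401_27, had 93 reads in Ant against 2 in Mix, a log2 ratio of 5.49 (3.60 to 8.56). Here the arms moved together, and the 3′ arm was the more read in both libraries. The precursor lies at A02:9809878-9810044 on the minus strand and is printed below in its own 5′ to 3′ direction, because both arms were members and both were called higher. In the deposited structure, each arm reaches 1 base past the start of the other.
PC-3p-3068_446 precursor: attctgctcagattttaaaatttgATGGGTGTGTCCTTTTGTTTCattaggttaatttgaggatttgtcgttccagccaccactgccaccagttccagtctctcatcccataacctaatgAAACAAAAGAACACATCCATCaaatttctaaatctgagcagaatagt

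Other members among the most read in Ant came from the 5′ and the 3′ arm alike, and 2 of them had few reads in Mix. PC-3p-6231_249 had 252.5 reads in Ant against 1.5 in Mix, a log2 ratio of 7.35 with a wide interval of 5.07 to 9.99 because of the few Mix reads. Its precursor at A06:5304574-5304710 was the poorest in GC of all members (10.2%) and had the highest energy index, 3.3. PC-5p-7382_217 had 309 reads in Ant against 6 in Mix (log2 5.64, 4.50 to 7.10). The 3′ arm of its precursor, PC-3p-72755_26, starts with U and had 84.5 reads in Ant against 8 in Mix. Both arms of this precursor were thus more read in Ant. PC-5p-2059_620, an A-starting member listed on both strands of A09, had 291 reads in Ant against 48 in Mix, a log2 ratio of 2.55 (2.11 to 3.03).

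PC-3p-20672_90 and PC-3p-146407_13 were the most read members with no read in Mix. With 100 reads in Ant, PC-3p-20672_90 was at least 32.3-fold higher than in Mix, taken against a limit of 3 reads. The other arm of its precursor, the 22-nt PC-5p-7322_218, was read in both libraries, with 219 reads in Ant against 45 in Mix. PC-3p-146407_13, the most read G-starting member of the Ant library, had 85 reads there, at least 27.4-fold higher. Its precursor at A02:6640462-6640574 overlaps that of a miR156h name, and miR156 is known in Arabidopsis as a regulator of SPL transcription factors. The member differs by 1 base (C2G, where the base of the other sequence comes first and positions count from the 5′ end) from the known name aly-miR156h-3p_1ss10CA, which had 3099 reads in Ant against 1 in Mix. The deposited precursor holds C at that position as well. The reads of the member were thus 2.74% of those of the known sequence in Ant. The same kind of pair was found for PC-3p-566693_4, which differs by A2G from bra-miR5712_1ss13AG. It had 20 reads in Ant against 11 in Mix, beside 675 in Ant against 1113 in Mix for the known sequence, or 2.96% in Ant and 0.988% in Mix. Whether the reads of these members arose from the known sequences was not tested. The lines below show both pairs, chosen after their values were seen.
PC-3p-146407_13: gGTCTCTTtacttctgccacc
aly-miR156h-3p_1ss10CA: gCTCTCTTtacttctgccacc
PC-3p-566693_4: aGTATTAAtatagttggtgag
bra-miR5712_1ss13AG: aATATTAAtatagttggtgag

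PC-3p-2424_542 and PC-5p-6811_231, the fourth and the fifth most read members of the Ant library, were listed for overlapping precursors on opposite strands of chromosome A02. PC-3p-2424_542 had 455 reads in Ant against 145 in Mix (log2 1.60, 1.33 to 1.88) and was listed at A02:28374269-28374452 on the minus strand. Its sequence differs by 1 base from that precursor, the only one listed for it. PC-5p-6811_231 had 361 reads in Ant against 154 in Mix (log2 1.18, 0.91 to 1.46), from A02:28374346-28374533 on the plus strand. Both were called higher at similar folds. With an assumed coefficient of variation of 0.4, edgeR's exact test kept neither call. The study placed both of them in its network of competing RNAs.

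Of the 5 most read members of the Mix library, 3 missed the fold needed for a call. PC-5p-3447_402 was described above. PC-5p-3156_435, a C-starting sequence of A09, had 354 reads in Ant against 204 in Mix (log2 0.75, 0.50 to 1.01). PC-5p-5459_278, from a 204-nt hairpin of A06, had 210 reads in Ant against 157 in Mix (log2 0.37, 0.07 to 0.68). The intervals of all 3 log2 ratios lie above 0.

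Fewer members were lower in Ant, and the strongest of them were a complementary pair. PC-5p-5898_261 had 7 reads in Ant against 134 in Mix, a log2 ratio of -4.30 (-5.65 to -3.22). PC-3p-58862_32 had 2.5 reads in Ant against 71 in Mix (log2 -4.87, -6.92 to -3.0). Both start with C. These sequences are reverse complements over 19 bases, although they were listed for different precursors, PC-5p-5898_261 for one on A03 and PC-3p-58862_32 for one on A09. The A03 precursor, printed below, also holds the whole sequence of PC-3p-58862_32. Both sequences thus lie in that hairpin, and the reads of PC-3p-58862_32 cannot be assigned to A09 alone. The 22-nt PC-3p-138330_13, which is the listed 3′ arm of the A03 precursor, starts with U and holds 19 bases of PC-3p-58862_32. It had 1 read in Ant and 18.5 in Mix. The precursors of these members had the lowest folding energies of all members, -195.8 and -196.1 kcal/mol. In the one on A03, at A03:20633832-20634032, 96.5% of the bases were paired, the highest share among the members. It is printed below from the plus strand to show the long perfect stem, with the listed arms in capitals.
PC-5p-5898_261 precursor: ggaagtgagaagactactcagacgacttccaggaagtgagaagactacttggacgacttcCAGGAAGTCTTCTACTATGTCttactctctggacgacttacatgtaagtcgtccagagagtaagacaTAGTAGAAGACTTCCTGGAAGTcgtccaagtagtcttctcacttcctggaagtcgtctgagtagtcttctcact

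The most read member of the Mix library was PC-5p-3397_407, from the 5′ arm of a 201-nt hairpin of A09. It had 92.5 reads in Ant against 359 in Mix, which is 4.01-fold lower in Ant (log2 -2.00, -2.34 to -1.66). PC-5p-34876_55, the most read G-starting member of the Mix library, holds the same bases shifted by 2, as the sequences above show. It had 33 reads in Ant against 60 in Mix (log2 -0.91, -1.57 to -0.27) and was not called. The 3′ arm of its precursor on A10 is the U-starting PC-3p-2236_580, with 17 reads in Ant against 2229 in Mix. The member was thus the more read arm in Ant, with 66.0% of the reads of both arms, and a small part of them in Mix, with 2.62%.

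The remaining large decreases were found on both arms. PC-3p-22377_84 had 9.5 reads in Ant against 104.5 in Mix (log2 -3.51, -4.54 to -2.50). PC-3p-38634_49, which the study also placed in its network, had 3.5 reads in Ant against 25.5 in Mix (log2 -2.91, -4.73 to -1.22). Its partner on the 5′ arm, PC-5p-252919_8, went the other way, with 9 reads in Ant against 1.5 in Mix. This was a small number of reads, with a counting interval of the log2 ratio of -0.15 to 5.37, although the tests called it higher, and the call was lost at a coefficient of variation of 0.4. PC-5p-36549_52 had 11.5 reads in Ant against 51 in Mix, and its more read partner PC-3p-4602_319, which starts with U, had 34.5 in Ant against 378 in Mix. Both arms of that precursor were lower in Ant. PC-3p-95558_19 had 5 reads in Ant against 24.5 in Mix (log2 -2.34, -4.11 to -0.96).

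**Figure D3:**
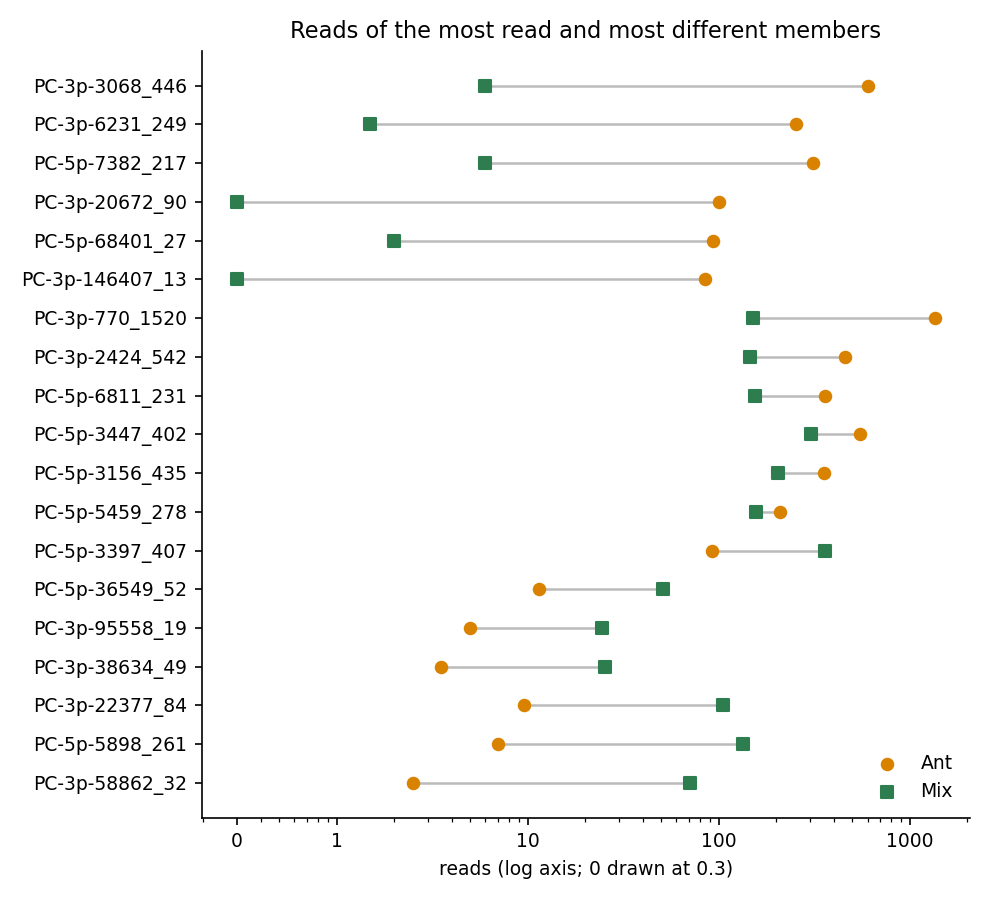
Reads in the Ant library (circles) and in the Mix library (squares) of the most read members and of the members with the largest differences, sorted by the log2 ratio with reads under 3 set to 3, on a log axis with 0 drawn at 0.3. PC-3p-3068_446 with 605 reads in Ant and 6 in Mix is at the top, and PC-3p-58862_32 with 2.5 in Ant and 71 in Mix at the bottom.

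The other arm of the precursor was listed for 117 of the 146 members, and for 29 it was not. The other arm started with U in 49 cases, with A in 46, with C in 13 and with G in 9. It had 21 nt in 77 cases and 24 nt in 21 cases. Of 39 precursors with U on the other arm and at least 10 reads in Ant, the member had fewer reads in 25 and more in 14, with a median of 39.9% of the reads. Where the other arm started with A, C or G, the member had fewer reads in 31 of 51 cases in Ant, with a median of 45.5%, and some precursors count for both arms there. In Mix, 24 precursors with U on the other arm had at least 10 reads, and the member had more reads in 12 and fewer in 12. A first base other than U thus did not mark the minor strand in every precursor.

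The arms of 1 precursor were seldom called in opposite directions. Over all 98 pairs of arms with a member, both were called higher in 27, both lower in 3, 1 arm alone in 23 and neither in 44. The arms of PC-3p-38634_49 and PC-5p-252919_8, described above, were the only pair called in opposite directions. Calls of both arms were not counted for precursors without a member, so these numbers have no background beside them. There were 45 precursors with a member and at least 10 reads on each arm in a library. In 25 of them both arms were called higher, in 3 both were called lower, in 8 only 1 arm was called and in 9 neither was. Arms can pass this minimum through the library where they are high, so these 45 describe only what passed. Of the 23 precursors with at least 20 reads in each library, the more read arm differed between the libraries in 5. Besides the A02 precursor of PC-3p-770_1520 and the A10 precursor of PC-5p-34876_55, these included the A03 hairpin of PC-3p-218713_9 and PC-5p-99945_18. PC-3p-218713_9 had 20 reads in Ant against 4 in Mix and was called higher, but not at a coefficient of variation of 0.4, whereas PC-5p-99945_18 had 11.5 in Ant against 19.5 in Mix.

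**Figure D4:**
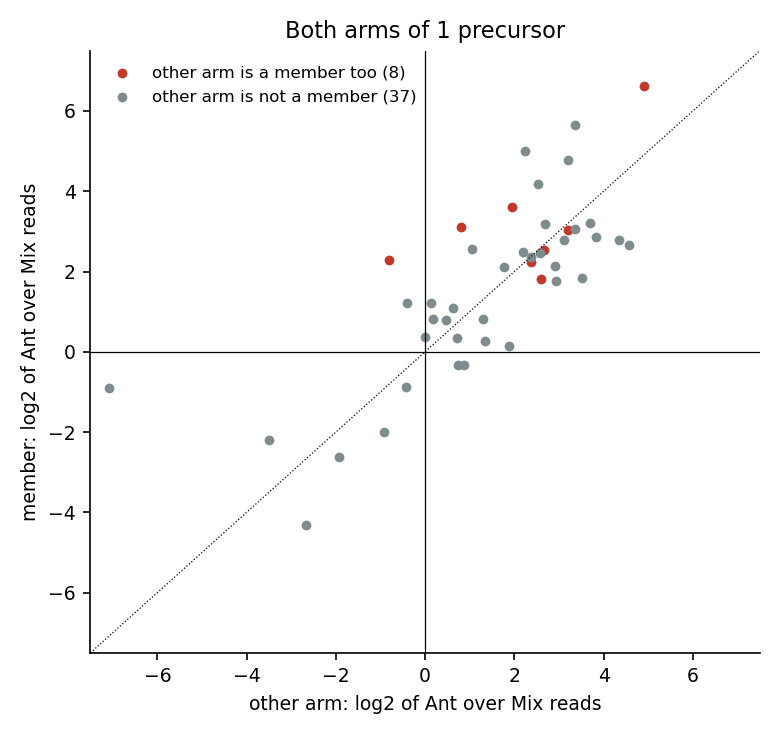
Log2 ratio of Ant to Mix reads (reads under 3 set to 3) of the member on the y axis and of the other arm on the x axis, for the 45 precursors with at least 10 reads on each arm in a library. The dotted line marks equal ratios; 41 of the 45 have the same sign on both arms, and the other arm was a member as well in 8.

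Several further pairs of members were listed for the 2 arms of 1 precursor and were higher in Ant on both. PC-5p-15955_114 had 84.5 reads in Ant against 13.5 in Mix, and its partner PC-3p-79725_23 had 42 in Ant against 11.5 in Mix. PC-3p-20143_92 had 58.5 reads in Ant against 11 in Mix, and PC-5p-103398_18 had 14.5 in Ant against 1.5 in Mix. The minus-strand precursor on A01 that lists both differs from each sequence by 1 base. PC-3p-20143_92 matches the plus-strand precursor, whose listed 5′ arm is the U-starting PC-5p-12419_142. PC-3p-40373_47 had 38 reads in Ant against 3 in Mix, and PC-5p-205963_9 had 12 in Ant against 2 in Mix. All 6 of these were called higher, but PC-3p-79725_23 and PC-5p-205963_9 lost the call at a coefficient of variation of 0.4. The pair of PC-3p-59836_31 (28.5 reads in Ant, 2 in Mix) and PC-5p-87689_21 (25.5 reads in Ant, 3 in Mix) behaved alike. PC-3p-59836_31 holds 18 bases of the U-starting PC-3p-67670_28, which had 60.5 reads in Ant against 2.5 in Mix. PC-5p-87689_21 holds 20 bases of the U-starting PC-5p-34355_55, which had 55 reads in Ant against 3 in Mix.
Some pairs were absent from Mix altogether. PC-5p-106606_17 and PC-3p-151747_12 had 19.5 and 18 reads in Ant, and PC-5p-85347_22 and PC-3p-998150_3 had 22.5 and 8. The sequence of PC-3p-998150_3 differs by 1 base from the precursor listed for it. It holds 20 bases of the U-starting PC-3p-72183_26, which had 44 reads in Ant against none in Mix. In 4 more pairs with at least 10 reads on an arm, no arm was called. The most read of these was PC-3p-73545_25, with 41 reads in Ant against 63.5 in Mix, beside 3 in Ant and 1 in Mix for PC-5p-4403533_1. PC-5p-329204_6 had 12 reads in Ant against 17 in Mix, and PC-3p-566244_4 had 6 in Ant against 9 in Mix. PC-5p-145113_13 had 12 reads in Ant against 14.5 in Mix, and PC-3p-635636_4 had 4 in Ant against 1.5 in Mix. PC-5p-225214_8 had 9 reads in Ant against 11 in Mix, and PC-3p-6360318_1 had 1 in Ant and 0 in Mix. PC-3p-635636_4 and PC-3p-6360318_1 also differ by 1 base from the precursors listed for them.

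Reads in 1 library only were seen for 28 members, 25 of them in Ant and 3 in Mix. Over all 1220 names, 106 were at 0 in Mix and 82 at 0 in Ant. Among the 114 PC- names of 21 nt with U, 16 were at 0 in Mix and 2 at 0 in Ant. Of the 25 members, 13 were called higher, with 5 to 100 reads in Ant. PC-3p-110379_17, an A-starting member of A05 that the study placed in its network, had 28 reads in Ant against none in Mix, at least 9.04-fold higher. Its partner PC-5p-91089_20, which starts with U, had 20 reads in Ant against none in Mix. The 3 members without reads in Ant were rare in Mix too. PC-3p-537240_4 had 4.5 reads in Mix, and PC-5p-5679455_1 and PC-3p-8573884_1 had 1 read each. A difference could not be detected at this depth for them.

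The precursors of the members were long, poor in GC and stably folded. The median hairpin had 149.5 nt (68 to 231), a GC content of 30.85% (10.2 to 51.3) and a folding energy of -81.8 kcal/mol (-196.1 to -23.6). The energy index MFEI, which relates the folding energy to the length and the GC content, had a median of 1.5 and went from 0.9 to 3.3. These medians lay close to those of the 21-nt PC- names with U, which were 143 nt, 30.6% GC, -75.95 kcal/mol and an MFEI of 1.5. The known miRNAs of 21 nt had shorter and less stable hairpins with more GC, at 131 nt, 39.9%, -56.8 kcal/mol and an MFEI of 1.0. All PC- names had to pass criteria on the hairpin before they were listed, and so the values describe what passed. The highest index after PC-3p-6231_249 was that of PC-3p-110379_17 (2.8). Among members with at least 10 reads in a library, PC-3p-146407_13 had the lowest (0.9), and 4 members, PC-5p-7382_217 among them, had 1.0.

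The precursors of the members called lower in Ant had lower folding energies and more GC, but not a higher MFEI. Their median folding energy was -111.35 kcal/mol, beside -81.8 for the members called higher and -78.7 for those not called. Their median GC content was 37.15%, beside 32.6% for those called higher and 29.7% for those not called. The median MFEI was 1.45 for those called lower, 1.5 for those called higher and 1.6 for those not called. The mature sequences followed the GC of the precursors, with a median GC of 42.9% in those called lower and 33.3% in those called higher. Over the 92 members with at least 10 reads in a library, the log2 ratio had Spearman's rho of 0.27 with the folding energy (r 0.36), -0.17 with GC, -0.20 with hairpin length and -0.07 with MFEI. These are descriptions across members that share the 2 libraries and, for arms of 1 hairpin, the same precursor values. The lower group was small, at 16 members.

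**Figure D5:**
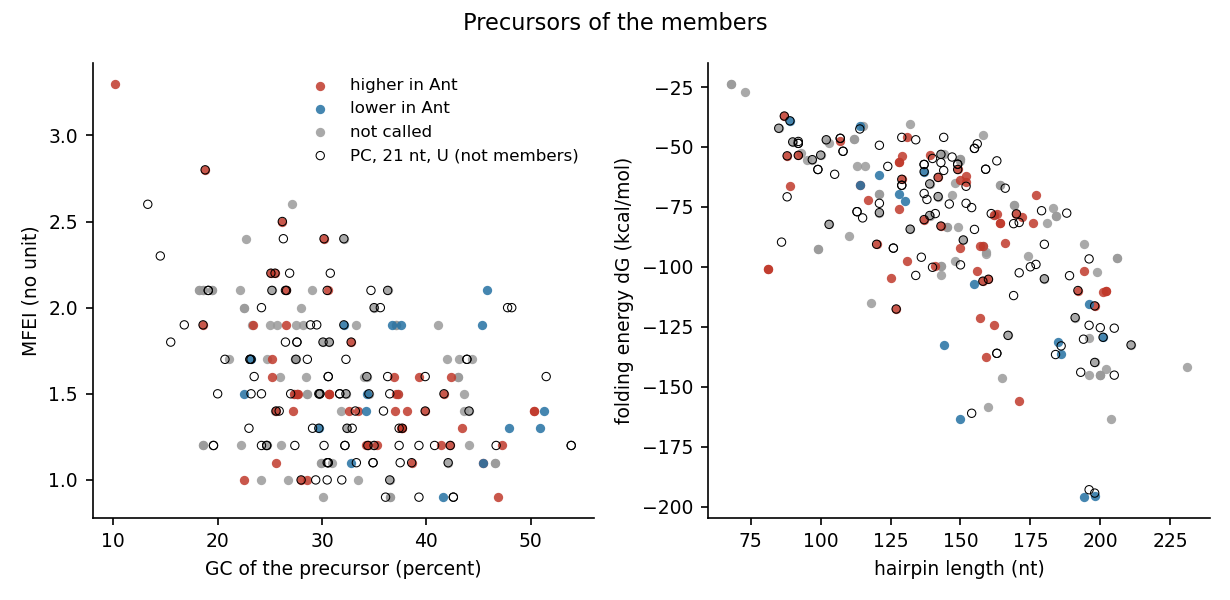
MFEI against GC content of the precursor (left) and folding energy in kcal/mol against hairpin length (right) for the members, coloured by call, with the 114 PC- names of 21 nt that start with U as open circles. The point at 10.2% GC and an MFEI of 3.3 is PC-3p-6231_249, and the 2 lowest blue points on the right, near -196 kcal/mol, are PC-3p-58862_32 and PC-5p-5898_261.

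Some members overlapped on opposite strands. For 35 members, the precursor overlapped a PC- precursor on the opposite strand, and 21 members were listed themselves on both strands of 1 place. Such overlaps were not counted for the other names, so these numbers have no background beside them. For 12 of the 21 the sequence was in the precursors of both strands, so that its reads cannot be assigned to a strand, for 8 it was in that of 1 strand only, and for 1 in neither. Where both mature sequences could be found in the deposited structure (63 precursors with a member), 14 had the 2-base overhang at both 3′ ends and 30 had 1 to 3 bases at both. In the PC- precursors without a member these numbers were 14 and 29 of 77, and in the precursors of known names 63 and 82 of 138. The median member had 20 of its bases paired in the structure, and the fewest were 17, over the 110 members found in their first precursor.

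The mature sequence of 32 members differed from every precursor listed for it. These members held 34 records, each with 1 difference, of which 7 fell within bases 2 to 8 and 8 within the last 3 bases. A further 10 members differed at 1 position of the genome and matched their other precursor. Differences from the precursor were not counted for the other names, so these numbers have no background either. For PC-3p-2424_542 the difference was A10C, where the base of the precursor comes first. In PC-5p-1289927_2 it was T1G at both of its positions, so the sequence in the genome starts with T there.

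The members were mostly unrelated in sequence. The 146 members had 142 distinct seeds, and 5 groups of 2 members shared a seed or a sequence shifted by up to 3 bases. With 1 difference allowed at a shift of 2, PC-5p-3397_407 also matched the members PC-5p-765299_3 and PC-5p-100735_18. PC-5p-15955_114 and PC-5p-166616_11 shared a seed and differed at 2 bases in all. The first was called higher, and PC-5p-166616_11 had 18 reads in Ant against 10 in Mix and was not called. PC-3p-193235_10 (28 reads in Ant, 4 in Mix, called higher) shared its seed with PC-3p-2486251_2 (8 in Ant, 3 in Mix, not called), while the rest of the sequences differed. With the other names of the table, 25 members agreed within 1 base at a shift of up to 3, and for 7 of these the other name started with U. PC-5p-103398_18, for example, holds 20 bases of the U-starting PC-5p-12419_142, which had 152 reads in Ant against 28.5 in Mix.
PC-5p-15955_114: aTAATTGTggggttctaagct
PC-5p-166616_11: gTAATTGTggagttctaagct

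Further members that the study took into its network or its qRT-PCR were called higher as well. PC-3p-33229_57 had 68.5 reads in Ant against 28.5 in Mix, a log2 ratio of 1.22 (0.56 to 1.88). PC-5p-17265_106 had 83 reads in Ant against 23 in Mix, a log2 ratio of 1.81 (1.12 to 2.54). Neither call was kept at a coefficient of variation of 0.4. PC-3p-312438_6 had 10.5 reads in Ant against 1 in Mix, a log2 ratio of 3.34 with a counting interval of 0.63 to 8.84. Its partner PC-5p-59534_32, which starts with U, had 23.5 reads in Ant against none in Mix.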

How the data were processed

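Small RNA of 1 Ant and 1 Mix library was analysed. The authors trimmed adapters, discarded repetitive reads and those of other RNA classes, retained lengths of 18 to 25 nt, and searched miRBase 21.0 and the genome, whose build for small RNA is not given in the sources used here. The labels and the methods differ in the RNA input of the libraries. The deposited reads are estimated counts with some fractions. The authors made the normalized signal by multiplying reads by 1 factor per library. The deposited GC content of the precursor is a percent, and the folding energy and MFEI are deposited scores. The authors' fold changes and calls were not used. Hairpin criteria, such as at least 16 base pairs in the stem and at most -15 kcal/mol, are stated in the notes of the table.

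Normalized reads were rounded, and Fisher's exact test (two-sided) and the chi-square test without continuity correction were run against totals over all names. Ratios have exact binomial intervals at 95%, made from rounded reads. edgeR's exact test was run on rounded reads at assumed coefficients of variation of 0.2 and 0.4. On simulated data with 1220 names, 45 of 50 names raised 4-fold and 46 of 50 lowered 4-fold were called, as were 50 of 50 at 8-fold in each direction, and 26 of 1020 unchanged names. The simulated reads held counting error alone, without spread between plants, and the rarest names were not among those changed. These rates therefore do not cover the rarest members and are not the error rates of the calls above. The tools were edgeR 4.0.16 in R 4.3.3, and scipy 1.17.1, pandas 2.3.3, numpy 2.4.6, matplotlib 3.10.9 and statsmodels 0.14.6 in Python 3.11.15.

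Members named were the 5 most read in each library, the 6 largest increases and decreases among called members with at least 20 reads, the 3 most read at 0 in the other library, the most read of each first base, the 2 highest and lowest MFEI, the 3 with most records, both-arm pairs with at least 10 reads, sequence groups with at least 20 reads, and those in the study's network or qRT-PCR. The members, lists and alternatives were chosen with earlier results of these data known. Counts over all pairs of arms, and sums without the most read members, were added after the values were seen. Alternatives changed the call rule, the scaling, read minimums, pseudocounts and the unit of counting.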

Additional observations from a re-analysis of the deposited data

How the results depend on the processing

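No paired analysis was possible because each group had 1 library, and for the same reason no library could be left out. The counts of 53 members higher and 16 lower stayed within 1.5 times under 12 and 11 of the 13 alternatives. With at least 10 reads in both libraries, 40 members were left, with 14 higher and 6 lower, beside 25.6% and 31.25% of the 480 names with that minimum, and edgeR's exact test at a coefficient of variation of 0.4 left 10 lower. The median log2 ratio of the members was positive throughout: 0.99 with a pseudocount of 1 normalized read, 0.36 with a pseudocount of 10, 1.22 with at least 10 reads in a library, 0.62 with reads scaled to all miRNA names, 0.46 with TMM factors and 0.51 with the valid reads of the study. TMM factors shifted every log2 ratio by -0.13. With each distinct sequence counted once in the total, the members took 0.533% of the reads in Ant and 0.224% in Mix. Members starting with A were 71.8% of records and 73.9% of members with at least 10 reads. At that minimum, the median GC content was 33.05%, the hairpin length 153.5 nt and the folding energy -85.8 kcal/mol, and per record the length was 148.5 nt. Reads in 1 library only were seen for 50 members when absence meant under 3 reads, and for 10 with at least 10 reads in the other library. The shares over all names were not computed for these settings.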

Other observations

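The members were spread over all 10 chromosomes. Chromosome A02 held the most records, 25, and A08 the fewest, 8, and 2 records lay on unplaced scaffolds. A stood at base 2 in 36.3% of the members and U, written as T, in 32.9%. At base 2 of the 114 PC- names of 21 nt that start with U, U stood in 51.8%. At base 21, C stood in 29.5% of the members.

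For 6 members, the precursor overlapped that of a known name on the same strand. PC-5p-7382_217 overlapped bra-MIR9563a-p5_2ss3CG21CT, with 54.5 reads in Ant against 1 in Mix, and shared 19 bases with it at a shift of 2. PC-5p-81224_23 had 30 reads in Ant against 23 in Mix and shared 21 bases with bra-miR9563a-5p_L+3_2ss5CA17TC, which had 21.5 reads in Ant against 24.5 in Mix. PC-5p-195195_10, a further member on a precursor of this family, had 33 reads in Ant against 12 in Mix. PC-3p-266844_7 had 4 reads in each library, on a precursor that overlaps that of bna-miR6029_1ss4GT, with 557 reads in Ant against 275 in Mix. PC-5p-34876_55 overlapped bol-MIR9409-p3_2ss13GC17GT_1, with no read in Ant and 11.5 in Mix.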
